A study of Sus scrofa with 6 samples.

Results

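The liver expression of 10 genes of the fibrillar collagen matrix was compared between ASGR1+/- and wild-type (WT) Bama minipigs. The genes were taken by symbol from the deposited table: COL1A1, COL1A2, COL3A1, COL5A1, COL6A3, SPARC, DCN, LUM, LOX and TIMP1. All 10 were present among the 17109 genes of the table, and all 10 passed the filter on low counts, as did 13401 genes in all. None of them changed past an adjusted p of 0.05 in the main test, edgeR, of S04 and S05 against WT. DESeq2, the tool the study used, passed COL3A1 as lower and TIMP1 as higher, and neither call held in every fit that left out an animal. COL3A1 and LUM had lower values and TIMP1 had higher values in both S04 and S05 than in every WT animal. Such values without overlap, in either direction, were found for 37.5% of all genes tested. By TPM, a level per gene length, the third ASGR1+/- animal, S03, was the highest for 8 of the 10. Of all genes tested, 28.8% were highest in S03 by that measure.

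Fibrillar collagens are secreted as triple-helical procollagens, trimmed outside the cell and packed into the fibrils that give tissue its tensile strength. In liver they are made mainly by stellate cells and portal fibroblasts, lie in portal tracts and along the sinusoids, and accumulate in fibrosis. Type I and type III collagen form most hepatic fibrils, and type V collagen, the small leucine-rich proteoglycans and SPARC act on how fibrils assemble. Lysyl oxidase crosslinks the finished fibrils, and TIMP1 inhibits the metalloproteinases that degrade them.

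RNA of whole liver was sequenced from 3 ASGR1+/- pigs, labelled S03, S04 and S05, and 3 WT pigs, labelled WT1, WT2 and WT3, with 1 library per animal. All of the animals were Bama minipigs fasted overnight before the livers were collected, and no drug or special diet is named for either group. The ASGR1+/- pigs carried, on 1 of their alleles, a CRISPR/Cas9 deletion across an intron-exon boundary of ASGR1, the hepatocyte receptor that clears desialylated glycoproteins, in every tissue and not in liver alone. The line was started from edited fetal fibroblast clones by nuclear transfer, so founders descend from few cells, and the labels give no litter, sex or age for single animals. The study's methods give an age range for all pig experiments and name a single female, an F1 pig numbered 03. The study set S03 aside after a principal-component analysis, and it is shown apart here, with every comparison given without and with it.

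ASGR1 itself was listed at 485 TPM in S03, 370 in S04 and 367 in S05, against 416, 452 and 305 in WT1, WT2 and WT3 (TPM, the level of a transcript per gene length, with the same total in each library). Between S04 and S05 and the WT animals its log2 fold change came to -0.18 ± 0.20 (SE, edgeR adjusted p = 0.652), and the whole-gene count does not separate the edited allele from the intact one. Library totals ran from 15397758 to 16237721 estimated counts. S03 stood apart from the other libraries: its summed TPM over 26 chromosome Y genes was 22.1, against 327 to 468 in the other 5, and its summed TPM over 6 erythroid genes was 5226, against 18.1 to 1220. As these are bulk libraries, fewer cells of a type and less RNA per cell cannot be told apart in any value below.

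COL1A1 (gene ID 100738123, chromosome 12, 26379087 to 26397180, Sscrofa11.1) and COL1A2 (100626716, chromosome 9, 74174484 to 74210407) encode the chains of type I collagen, the main fibril of scar and of the liver capsule. COL1A1 was at 33.3 TPM in S04 and 13.0 in S05, and at 28.8, 19.4 and 58.9 in WT1, WT2 and WT3. COL1A2 was at 36.6 TPM in S04 and 14.4 in S05, and at 33.0, 20.6 and 45.2 in the same WT order. For both chains S04 lay inside the WT range and S05 lay below it, so the groups overlapped. The means of COL1A1 were 23.2 ± 14.4 TPM (SD, n = 2) and 35.7 ± 20.6 TPM (SD, n = 3), with a log2 fold change of -0.76 ± 0.62 (SE, edgeR adjusted p = 0.534). The log2 fold change of COL1A2 was -0.48 ± 0.51 (SE, edgeR adjusted p = 0.633). In S03, COL1A1 was at 77.2 TPM and COL1A2 at 62.5 TPM, both above every other library. The ratio of COL1A1 to COL1A2 in TPM stayed between 0.872 and 0.943 in S04, S05, WT1 and WT2, and was 1.24 in S03 and 1.30 in WT3, the libraries with the most of both chains.

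COL3A1 (100152001, chromosome 15, 93556914 to 93595678) encodes type III collagen, the reticular fibre of the sinusoids, and was the most abundant of the 10 in S03 and in each WT library. It was at 49.5 TPM in S04 and 29.1 in S05, and at 93.3, 59.8 and 124 in WT1, WT2 and WT3. Both values lay below the lowest WT value. The means were 39.3 ± 14.4 TPM (SD, n = 2) against 92.3 ± 32.0 TPM (SD, n = 3). The fitted level was 2.54-fold lower, a log2 fold change of -1.35 ± 0.43 (SE, edgeR adjusted p = 0.151). DESeq2, the alternative test here and the tool the study used, gave -1.33 with an adjusted p of 0.0219, which passed. S03 went the other way, at 169 TPM, 1.84 times the WT mean, and with S03 in the group the log2 fold change was -0.39 (edgeR adjusted p = 0.797).

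The balance of type III to type I chains also differed between libraries. COL3A1 stood at 1.35 times COL1A2 in TPM in S04 and 2.02 times in S05, against 2.83, 2.90 and 2.74 in WT1, WT2 and WT3 and 2.71 in S03. S04 and S05 were thus the lowest of the 6 in this ratio, and S03 lay just under the WT values. Against COL1A1 the ratio was 1.49 in S04 and 2.24 in S05, and 3.24, 3.08 and 2.10 in the WT libraries, so the groups overlapped there. COL3A1 lies next to COL5A2, another fibrillar chain, which starts 16177 bases after it.

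COL5A1 (397533, chromosome 1, 273934219 to 274083264) encodes the type V chain that nucleates type I fibrils, and COL6A3 (100101551, chromosome 15, 137011549 to 137103687) a chain of the beaded type VI microfibrils that anchor cells to fibrils. COL5A1 was at 4.08 TPM in S04 and 4.2 in S05, within the WT values of 4.72, 3.35 and 5.66. COL6A3 was at 2.19 TPM in S04 and 2.48 in S05, within the WT values of 3.78, 1.87 and 3.82. Unlike the type I chains, both genes stood at nearly the same level in S04 and S05, with S04 at 0.971 times S05 for COL5A1 and 0.883 times for COL6A3. Their log2 fold changes were -0.26 ± 0.29 (SE, edgeR adjusted p = 0.646) and -0.54 ± 0.34 (SE, edgeR adjusted p = 0.419). S03 held 8.98 TPM of COL5A1 and 7.11 TPM of COL6A3, 1.96 and 2.25 times the WT means and the highest of the 6 libraries for each.

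**Figure D1:**
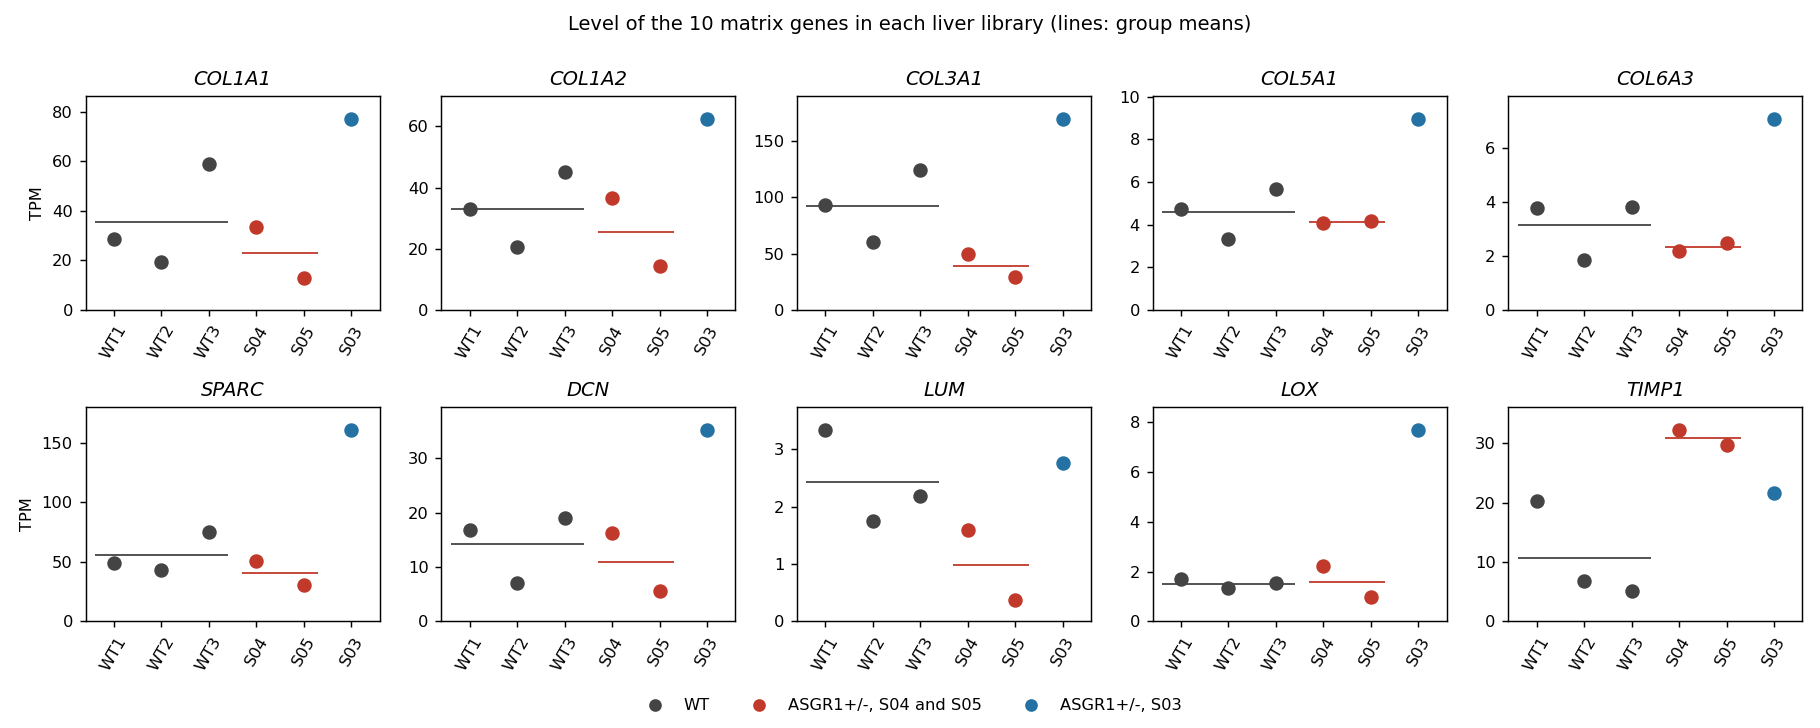
Level of each of the 10 genes, in TPM, in the 6 liver libraries, with 1 point per animal and a line at the mean of WT1 to WT3 and of S04 and S05. S03 (blue) is the top point for 8 genes, and S04 and S05 (red) lie outside the WT points for COL3A1, LUM and TIMP1.

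SPARC (595124, chromosome 16, 71368164 to 71380972) encodes osteonectin, a collagen-binding glycoprotein that accompanies procollagen to the fibril. It was at 50.7 TPM in S04 and 30.4 in S05, and at 49.2, 43.4 and 75.5 in WT1, WT2 and WT3. S04 lay inside the WT range and S05 below it, the same arrangement as for type I collagen. The log2 fold change was -0.59 ± 0.39 (SE, edgeR adjusted p = 0.436). SPARC was the most abundant of the 10 in S04 and S05, where it stood above COL3A1. In S03 it reached 161 TPM, 2.88 times the WT mean. The span of SPARC overlaps a long non-coding RNA gene, LOC110257252, not analysed here.

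DCN (396957, chromosome 5, 91678601 to 91713925) and LUM (100152607, chromosome 5, 91748871 to 91756381) encode decorin and lumican, small leucine-rich proteoglycans that coat fibrils and set their spacing. They are neighbours, 34945 bases apart. DCN was at 16.2 TPM in S04 and 5.62 in S05, and at 16.8, 6.97 and 19.0 in WT1, WT2 and WT3. LUM was at 1.6 TPM in S04 and 0.38 in S05, and at 3.34, 1.75 and 2.18 in the same WT order. DCN overlapped between the groups, with only S05 below the WT range, whereas both LUM values lay below every WT value, S04 by a small margin. The log2 fold changes were -0.49 ± 0.58 for DCN (SE, edgeR adjusted p = 0.671) and -1.34 ± 0.63 for LUM (SE, edgeR adjusted p = 0.281). The LUM values rest on 32 and 7 estimated counts in S04 and S05 and on 63, 32 and 44 in WT1, WT2 and WT3, so counting error is a larger part of its spread than for the collagens. In S03, DCN was at 35.3 TPM, the highest of the 6, and LUM at 2.76 TPM, inside the WT range.

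LOX (100525278, chromosome 2, 125595115 to 125607026) encodes lysyl oxidase. It was at 2.24 TPM in S04 and 0.96 in S05, on opposite sides of the WT values of 1.69, 1.32 and 1.52. Its log2 fold change was 0.00093 ± 0.48 (SE, edgeR adjusted p = 0.999), while the WT animals were closer to each other than for any other of the 10, with the highest at 1.28 times the lowest. In S03 the level was 7.7 TPM, 5.10 times the WT mean and the largest excess of S03 among the 10. The estimated counts behind these values were 114 in S03, 35 and 14 in S04 and S05, and 25, 19 and 24 in WT1, WT2 and WT3. LOX lies inside the span of LOC100525452, which held 0 to 4 estimated counts per library.

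TIMP1 (396862, chromosome X, 42103251 to 42106289) was the only member whose level was higher in both S04 and S05 than in every WT animal. It was at 32.3 TPM in S04 and 29.6 in S05, and at 20.3, 6.74 and 5.06 in WT1, WT2 and WT3. S04 and S05 were close to each other, and WT1 stood well above the other WT libraries, at 4.02 times WT3. The means were 30.9 ± 1.87 TPM (SD, n = 2) and 10.7 ± 8.37 TPM (SD, n = 3). The fitted level was 2.83-fold higher, a log2 fold change of 1.5 ± 0.48 (SE, edgeR adjusted p = 0.151). DESeq2 gave 1.51 with an adjusted p of 0.0466, which passed. S03 was at 21.6 TPM, just above WT1, and with it in the group the log2 fold change was 1.32 (edgeR adjusted p = 0.221, DESeq2 adjusted p = 0.076). TIMP1 lies inside the span of SYN1, a neuronal gene with 4 to 20 estimated counts per library, against 27 to 167 for TIMP1, and the strand used in counting is not given in the sources used here.

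The ratio of TIMP1 to COL3A1 was taken as well. TIMP1 was 0.652 times COL3A1 in TPM in S04 and 1.02 times in S05, against 0.218, 0.113 and 0.0409 in WT1, WT2 and WT3. S03, at 0.127, lay inside the WT range. S04 and S05 lay above every WT library in this ratio, whose members were picked for their own values above.

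Over the 10 genes, edgeR passed 0 at an adjusted p of 0.05, against 0.791% of all genes tested, and DESeq2 passed 2, COL3A1 lower and TIMP1 higher, against 9.57% of its genes. The same 2 genes had an unadjusted edgeR p under 0.05, against 20.9% of all genes, so their share lay near that of the table. Values without overlap between S04 and S05 and WT were found for 3 of the 10, COL3A1 and LUM lower and TIMP1 higher, where 37.5% of all genes tested showed such values in either direction. The log2 fold change was negative for 8 and positive for 2, with a median of -0.52, while the median of all genes tested was 0.0031.

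The DESeq2 calls depended on which animals were included. Without S05 or without WT3 neither gene passed, with adjusted p-values of 0.369 and 0.0823 for COL3A1 and of 0.281 and 0.125 for TIMP1. TIMP1 also missed the threshold without S04, at 0.309, and without WT2, at 0.235, and it had an adjusted p of 6.58e-05 with DESeq2 without WT1. COL3A1 passed with DESeq2 without S04, WT1 or WT2, at 0.00376, 0.0322 and 0.0047. LUM passed only when S04 was left out, at 0.0199 with DESeq2.

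With S03 counted among the ASGR1+/- animals, 0 of the 10 passed with edgeR, against 0.136% of genes tested, and 0 with DESeq2, against 5.64%, and 1 gene, TIMP1, had an unadjusted edgeR p under 0.05, as had 16.1% of all genes. The log2 fold change then turned positive for COL5A1 (0.13), COL6A3 (0.11), SPARC (0.29) and DCN (0.21), so that 6 were positive and 4 negative, with a median of 0.12 beside 0.023 for all genes. LOX moved most, from 0.00093 to 1.07 (edgeR adjusted p = 0.485). The comparisons with and without S03 share the same WT libraries.

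**Figure D2:**
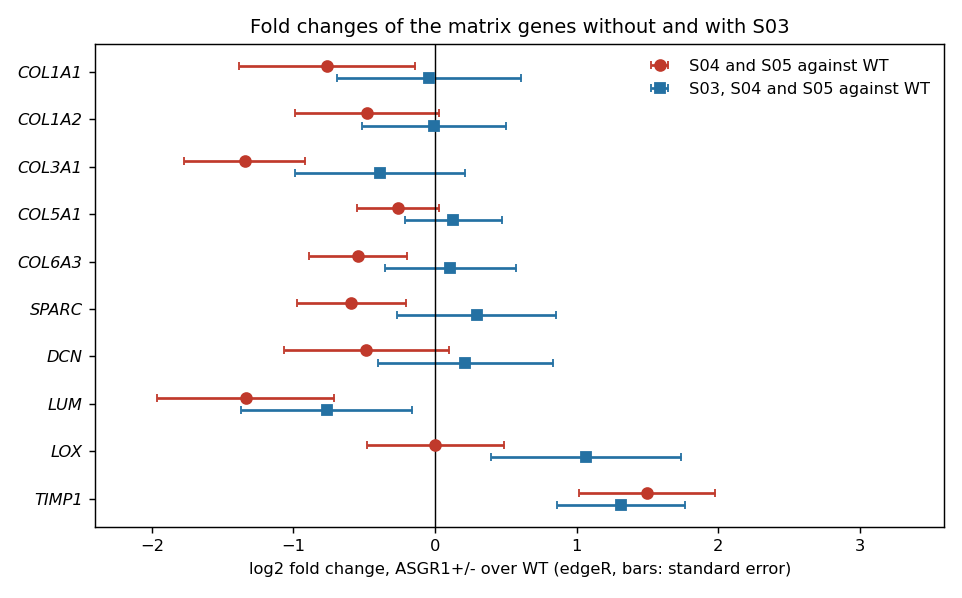
Log2 fold change of ASGR1+/- over WT for each gene from edgeR, with bars of 1 standard error, without S03 (red circles) and with S03 (blue squares). COL3A1 lies at -1.35 and TIMP1 at 1.5 without S03, and adding S03 moves 9 of the 10 upward, with TIMP1 the exception.

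By TPM, S03 stood above the other libraries in most of the set. S03 held the highest TPM of the 6 in 8 of the 10 genes, all but LUM and TIMP1, where 28.8% of all genes tested were highest in S03. By CPM (counts scaled to library totals and edgeR's library factors) it was highest in 7 of the 10, where 16.7% of all genes were, since COL1A1 was then higher in WT3, at 301 CPM, than in S03, at 290. WT3 was also close to S03 by CPM for COL1A2, at 189.5 against 192.4, and for COL3A1, at 485.1 against 487. COL1A1, COL1A2, COL3A1 and COL5A1 together summed to 1001 CPM in S03 and 1003 in WT3. S03 stood at 1.84 to 2.88 times the WT mean TPM for the collagens, SPARC and DCN, and at 1.5 to 2.35 times by CPM. S05 was the lowest of the 6 libraries for 7 of the 10, COL1A1, COL1A2, COL3A1, SPARC, DCN, LUM and LOX. By TPM it was lowest for 2092 of all 13401 genes tested. Its distance from S04 was widest for LUM, 4.21 times, then DCN, 2.88 times, and the type I chains, at 2.57 and 2.54 times.

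The WT animals varied among themselves by a similar measure. WT2 held the lowest WT level of 9 of the 10, with WT3 lowest for TIMP1, and WT3 held the highest WT level of 7. Of all 13401 genes tested, WT2 held the lowest WT level of 3449 and WT3 the highest of 2181, by TPM. The highest WT level was 3.03 times the lowest for COL1A1, 2.73 times for DCN, 2.19 times for COL1A2 and 2.07 times for COL3A1. Only LOX, COL5A1, SPARC and LUM kept the WT animals within 2-fold of each other. The summed level of the 10 genes was 559 CPM in S04 and 273 in S05, against 627, 458 and 1166 in WT1, WT2 and WT3, and 1250 in S03. The mean of S04 and S05 minus the mean of WT was -334 CPM (exact permutation test, two-sided, p = 0.4, where 0.2 is the smallest p these numbers allow). With S03 the difference was -56.3 CPM (exact permutation test, p = 0.9, where 0.1 is the smallest).

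Profiles over the 6 libraries were compared between genes. Likeness was measured as the root-mean-square difference between log2 CPM values, each centred on its gene's mean over the 6 libraries, among 12718 genes with at least 1 CPM on average. COL1A1 and COL1A2 differed by 0.232, COL1A2 and DCN by 0.234 and COL1A1 and DCN by 0.273. COL5A1 and COL6A3, the chains that held level between S04 and S05, differed by 0.229. In nearness among all genes, COL1A2 ranked 2 to COL1A1 and COL1A1 ranked 9 to COL1A2. COL6A3 ranked 72 to COL5A1 and COL5A1 ranked 20 to COL6A3, and the profile of COL5A1 varied less than that of COL1A1. TIMP1 was far from every other member, at 1.06 to 1.57. Of all other genes, those nearest to the mean profile of COL1A1, COL1A2 and COL3A1 were RFLNB (0.199), ECM2 (0.206), FCER1A (0.218), COL16A1 (0.248) and FAP (0.254). ECM2 encodes a matrix protein, COL16A1 a fibril-associated collagen, FAP a protease of activated fibroblasts and FCER1A a subunit of the mast cell IgE receptor. These values describe 6 libraries, and of the chains in that mean profile COL1A1 was highest in WT3, COL1A2 and COL3A1 in S03, and all 3 were lowest in S05.

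**Figure D3:**
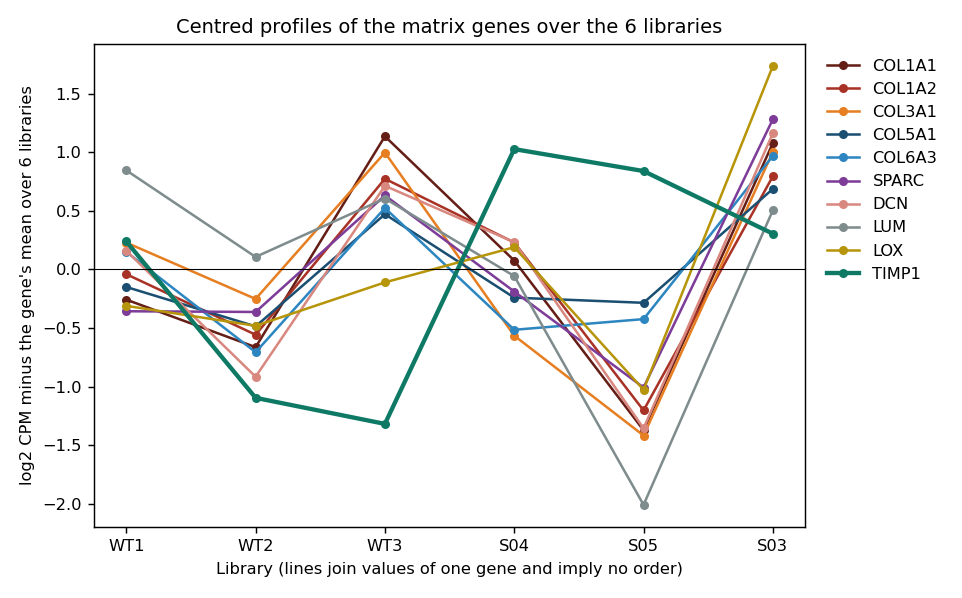
Log2 CPM of each gene minus its own mean over the 6 libraries, by library, with 1 line per gene. The collagens, SPARC, DCN, LUM and LOX lie below their means in S05 and above them in S03, and TIMP1 (thick green) peaks in S04 and S05.

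Markers of the cells that make this matrix were examined in the same libraries. All 17 stellate cell markers in the table, of 18 listed, were highest in S03, and their summed level was 457 TPM there, against 147 and 165 in S04 and S05 and 211, 194 and 206 in WT1, WT2 and WT3. Portal fibroblast markers summed to 424 TPM in S03, 176 and 179 in S04 and S05, and 249, 262 and 227 in WT, with 7 of 10 highest in S03. The sums of both lists were lower in S04 and S05 than in every WT library. By single markers this held for 7 of 17 stellate and 5 of 10 portal fibroblast genes, beside 1932 of all 13401 genes. FBLN1, also in the matrix lists below, was at 55.4 and 39.0 TPM in S04 and S05, against 83.5 to 107 in WT. CLEC3B, another large part of the portal sum, overlapped, at 89.4 and 110 TPM against 70.5 to 129 in WT. Of the 17 stellate markers tested, 0 passed with edgeR (with an unadjusted p below 0.05, 4 were lower and 0 higher) and 2, COLEC11 and RELN, were lower with DESeq2. These shares, 23.5% and 11.8%, stand beside 20.9% and 9.57% of all genes in either direction. Counting lower genes alone, the shares of all genes were 12.0% and 6.30%. None of the stellate or portal fibroblast markers was at 0 in all libraries.

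Divided by the summed stellate markers, a description chosen after the values were seen, S03 lay inside the WT range for 8 of the 10 genes, with LOX above it and LUM below it. The share of all genes inside that range after the same division was not taken, so the count is no result about these genes alone. All 17 stellate markers were themselves highest in S03, and no other marker sum was used as divisor. The chains COL1A1, COL1A2, COL3A1 and COL5A1 together stood at 0.696 times the stellate sum in S03, 0.838 in S04 and 0.368 in S05, against 0.756, 0.531 and 1.14 in WT1, WT2 and WT3. S05 alone lay outside the WT range. COL3A1 alone was at 0.336 times the stellate sum in S04 and 0.176 in S05, against 0.442, 0.308 and 0.602 in WT, so S04 then overlapped with WT. TIMP1 was at 0.219 and 0.179 times in S04 and S05, still above the WT values of 0.0962, 0.0347 and 0.0246.

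Markers of other cell types followed several orders. Endothelial markers summed to 444 TPM in S03, 117 and 175 in S04 and S05, and 242, 250 and 179 in WT, with 12 of 13 highest in S03. The hepatocyte sums, 48460 TPM in S04, 57850 in S05 and 70940 in S03, were all below the WT range of 76820 to 141100. Albumin, ALB, made up much of that gap, where WT libraries held 27908 to 74676 TPM, S04 6928 and S05 10070. The list was not uniform. FGB, a fibrinogen chain, ranged from 9627 to 15782 TPM in WT and reached 23530 in S04 and 30774 in S05 (higher with DESeq2, adjusted p = 0.0426). HNF4A, a hepatocyte transcription factor, was above every WT library in both animals by TPM only (DESeq2 adjusted p = 0.625). By CPM its S04 value, 260, lay inside the WT range of 235 to 293. Smooth muscle and myofibroblast markers summed to 122 TPM in S04, 382 in S05 and 314 in S03, where WT libraries had 118 to 176. S05 thus held the highest sum of that list beside the lowest level of 7 matrix genes. Single markers were mixed: 3 of the 9 were highest in S03, and MYH11 was highest in WT1, at 3.06 TPM against 2.27 in S05. Mesothelial markers, 5 of 7 listed, summed to 27.9 TPM in S04, 7.86 in S05, 4.85 in S03 and 1.21 to 3.6 in WT. Macrophage markers were lowest in S03, at 1704 TPM, against 1839 and 2305 in S04 and S05 and 1866 to 3821 in WT, and none of the 12 was highest in S03. Cholangiocyte markers summed to 239 TPM in S03, 242 and 316 in S04 and S05 and 168 to 253 in WT, also with none highest in S03. The part of these cell types in the matrix values was not tested.

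**Figure D4:**
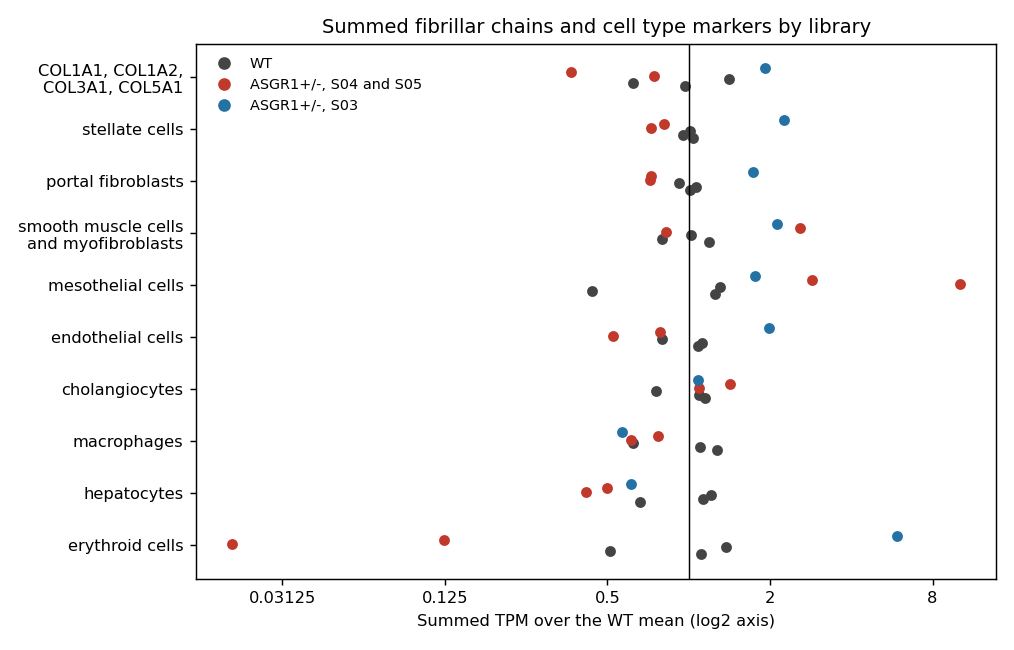
Summed TPM of 4 fibrillar chains and of each cell type marker list in each library, divided by the WT mean of that sum, on a log2 axis. S03 (blue) lies near or above 2 for the fibrillar chains, stellate and endothelial markers, where S04 and S05 (red) lie below 1.

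The rest of the collagen matrix was followed with 11 lists of pathway genes, of which 204 genes were tested, each counted once and with the 10 genes included. With edgeR 3 fell and 0 rose, 1.47% of the lists against 0.791% of all genes. With DESeq2 19 fell and 7 rose, 12.7% against 9.57%, a share close to that of the table. Their log2 fold changes had a median of -0.19, or 0.18 once S03 was included. Of the 8 fibrillar chains tested, of 11 listed and with 4 of the 10 genes among them, none passed with edgeR, only COL3A1 passed with DESeq2, and the median was -0.45. All 8 were highest in S03. COL5A3 had the largest positive value, 0.38 (edgeR adjusted p = 0.658).

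Other collagens gave the same count with edgeR, 0 of 20 tested (with an unadjusted p below 0.05, 7 were lower and 0 higher, where 12.0% of all genes were lower), and 4 were lower with DESeq2, COL6A5, COL14A1, COL4A6 and COL18A1, where 6.30% of all genes were. The list median was -0.55. COL6A5, a chain of type VI collagen, was at 1.76 TPM in S04 and 0.48 in S05, and at 8.12, 6.27 and 10.8 in WT1, WT2 and WT3, the lowest log2 fold change of the list at -3.03 (edgeR adjusted p = 0.0696). S03 was at 16.1 TPM, and with it in the group the log2 fold change of COL6A5 was -0.74 (edgeR adjusted p = 0.765). COL12A1, a fibril-associated chain, had the largest positive value, 0.32 (edgeR adjusted p = 0.647). Of 11 laminins and nidogens, none passed with edgeR and NID1 was lower with DESeq2, 9.09% of the list, where 6.30% of all genes were lower. The extremes of that list were LAMB3 at -1.59 and LAMA5 at 0.89 (edgeR adjusted p = 0.235 and 0.172).

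The 3 genes of these matrix lists that fell with edgeR were GPC3, POSTN and MMP11, where 77 of all 13401 genes tested fell. GPC3, a cell-surface heparan sulfate proteoglycan, was at 68.9 TPM in S04 and 51.3 in S05, and at 212, 195 and 208 in WT1, WT2 and WT3, a log2 fold change of -1.87 ± 0.24 (SE, edgeR adjusted p = 0.0398). POSTN, periostin, which binds collagen and promotes its crosslinking, was at 30.8 TPM in S04 and 33.3 in S05, and at 94.4, 64.7 and 59.8 in WT, a log2 fold change of -1.27 ± 0.19 (SE, edgeR adjusted p = 0.0463). MMP11, stromelysin-3, a metalloproteinase, was at 1.96 TPM in S04 and 1.64 in S05, and at 9.57, 5.27 and 6.7 in WT, a log2 fold change of -2.16 ± 0.25 (SE, edgeR adjusted p = 0.0323). All 3 lay below every WT library in S04 and S05. In S03 they were at 140, 95.6 and 5.15 TPM. With S03 included, DESeq2 passed GPC3 and MMP11 as lower (adjusted p = 0.00197 and 0.00304) but not POSTN (0.467). With edgeR none of the 3 passed in that setting. None passed with edgeR without S04, S05, WT1 or WT2 either, with adjusted p-values of 0.055 to 0.199. The POSTN call was also lost without WT3 (edgeR adjusted p = 0.0579) and when libraries were scaled by their totals alone (0.0777), whereas GPC3 and MMP11 passed there.

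Enzymes that fold, modify and crosslink collagen had values in both directions. Of 24 folding and processing genes 0 passed with edgeR, with a median of -0.04. With an unadjusted edgeR p below 0.05, 3 were higher and 2 lower, 20.8% against 20.9% of all genes. DESeq2 passed 12.5% of the list, against 9.57% of its genes. P4HA2, a catalytic subunit of prolyl 4-hydroxylase, was at 50.6 TPM in S04 and 53.1 in S05, and at 24.0, 28.0 and 11.9 in WT1, WT2 and WT3, a log2 fold change of 1.22 (edgeR adjusted p = 0.0846, DESeq2 adjusted p = 0.00541). SERPINH1, the collagen chaperone HSP47, was at 50.5 TPM in S04 and 44.0 in S05, and at 29.0, 17.9 and 17.1 in WT, a log2 fold change of 1.07 (edgeR adjusted p = 0.0655, DESeq2 adjusted p = 0.00131). SERPINH1 was singled out after its values were seen. Both genes were higher in S04 and S05 than in every WT library, and in S03 they were at 77.8 and 95.3 TPM. P4HB, the partner subunit and a general disulfide isomerase, had a log2 fold change of -0.60 (edgeR adjusted p = 0.2) and passed as lower with DESeq2 (adjusted p = 0.0477). Of 8 crosslinking genes, LOX among them, 0 passed with edgeR. TGM2, a transglutaminase, was higher with DESeq2, at 0.87 (adjusted p = 0.0102), which made 12.5% of the list against 9.57% of its genes. LOXL1 was at -0.39 (edgeR adjusted p = 0.523).

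Among 8 protease inhibitors, TIMP1 included, 0 passed with edgeR and 2 were higher with DESeq2, with a median of 0.56. That was 25.0% of the list, against 9.57% of the genes of DESeq2 in either direction. The second was TIMP3, a matrix-bound inhibitor, at 34.9 TPM in S04 and 58.1 in S05, and at 20.8, 15.1 and 17.1 in WT1, WT2 and WT3, with 24.5 in S03. Its log2 fold change was 1.29 (edgeR adjusted p = 0.0608, DESeq2 adjusted p = 0.000148), and it was singled out after its values were seen. CST3, cystatin C, had the lowest value of the list, -0.44 (edgeR adjusted p = 0.187). Of 28 proteases, MMP11 fell with edgeR and 0 rose, 3.57% against 0.791% of all genes. With DESeq2 MMP11, MMP15 and CTSK were lower and 1 was higher, 14.3% against 9.57% of its genes. The higher gene was ADAMTS5, an aggrecanase, with the largest positive value of the list, 2.33 from levels under 1 TPM (edgeR adjusted p = 0.0897, DESeq2 adjusted p = 0.00806).

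**Figure D5:**
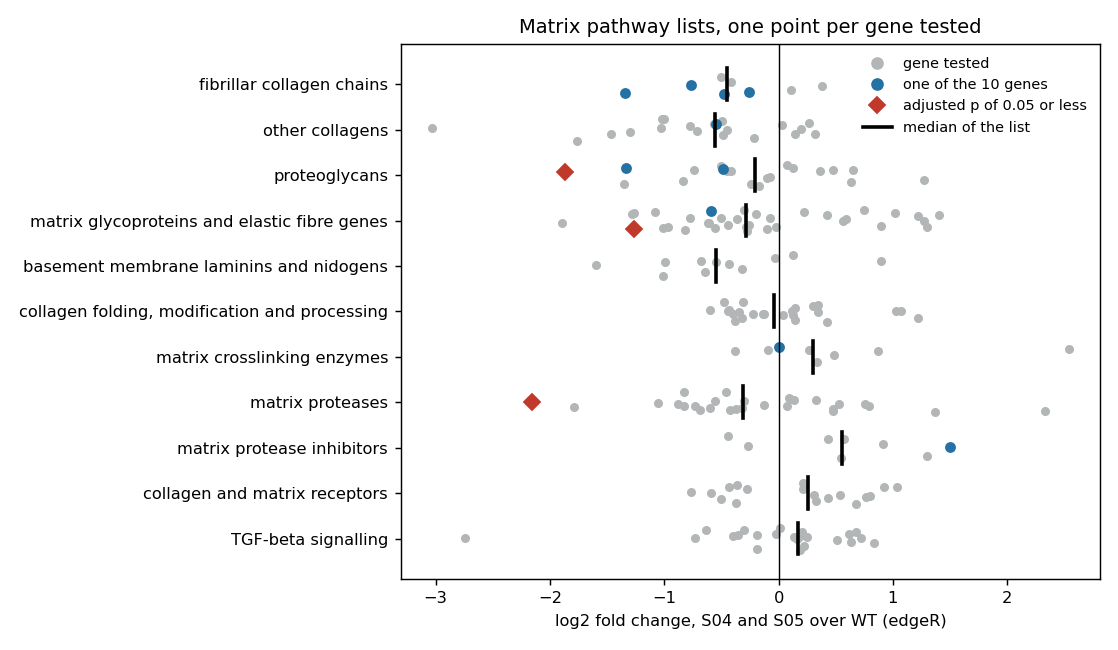
Edited over WT log2 fold change, from S04 and S05, for each gene tested in the 11 matrix lists, with 1 point per gene, the 10 genes in blue, genes with an edgeR adjusted p of 0.05 or less as red diamonds, and a bar at the median of each list. The chain and laminin medians lie between -0.55 and -0.45, and the inhibitor median, of the list that holds TIMP1, at 0.56.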

How the data were processed

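Reads of 6 liver libraries were trimmed and aligned by the authors with HISAT2 2.0.4 and Bowtie2 to Sscrofa11.1, per the submitters' processing notes. The deposited table holds estimated counts per gene, not normalized, the authors' TPM, per gene length with an equal total in each library, and their FPKM, scaled by gene length and library fragments, of which the FPKM was not used here. The tool behind the counts is not given in the sources used here. The deposited group averages were not used. Of the count cells 12.0% were not whole, and counts were rounded for each test.

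Groups came from the genotype labels. The main test was edgeR 4.0.16 (TMM, filterByExpr with a minimum count of 10, quasi-likelihood F-test, Benjamini-Hochberg over all genes tested, adjusted p of 0.05 or less) of S04 and S05 against WT, as the study left S03 out. The SE is the log2 fold change over the root of F. Alternatives were all 6 libraries, DESeq2 1.42.0, its size factors in edgeR, library totals alone, no filter, limma 3.58.1 on log2(TPM + 1) and log2(TPM + 0.1), and leaving out each animal. The edgeR, DESeq2 and limma steps were tested on simulated counts with 200 genes changed. Replicates are separate animals, and with 2 or 3 per group the spread between animals limits the precision.

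The 10 genes and all lists were chosen with earlier results of these data known. Besides the 10 and ASGR1, the text names from each list the genes that passed with edgeR, the largest rise and fall among genes of at least 1 CPM, and the 5 genes nearest in profile. Genes outside that rule, named as DESeq2 calls or singled out, were chosen after their values were seen. Gene positions are those of the RefSeq annotation of Sscrofa11.1, in which all 17109 gene IDs were found.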

Additional observations from a re-analysis of the deposited data

How the results depend on the processing

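The number of genes that passed in all was 106 with edgeR, 1307 with DESeq2, 18 with all 6 libraries, 815 with DESeq2 on all 6, 5 with limma on log2(TPM + 1) and 34 on log2(TPM + 0.1). Leaving out 1 animal gave 0 to 115 genes, with 2 without S04, 0 without S05, 53 without WT1 and 5 without WT2. Of the 10 matrix genes 0 passed with edgeR under every edgeR and limma alternative and in each fit that left out an animal, and 2 passed with DESeq2, a number that ran from 0 to 2 when an animal was left out. Of the genes of the pathway lists 3 passed with edgeR, 0 with all 6 libraries, 26 with DESeq2, 12 with DESeq2 on all 6, 0 with limma on log2(TPM + 1) and 1 on log2(TPM + 0.1), and 0 to 3 when 1 animal was left out, 0 without S04, S05, WT1 or WT2. The cause of these differences was not tested. COL1A1, COL3A1, LUM and TIMP1 kept the sign of their log2 fold change in all 13 alternatives. COL1A1 ran from -1.65 without S04 to -0.03 without WT3, COL3A1 from -1.83 to -0.94 and TIMP1 from 1.22 to 2.2 over the fits that left out an animal. Without S05, COL1A2 and DCN were positive. Library totals alone, without TMM, moved the median log2 fold change of all genes from 0.0031 to 0.11 and turned no sign among the 10. The labels give no pairing between ASGR1+/- and WT animals, so the groups were compared unpaired. Depth limits mainly LUM and LOX, with at most 63 and 35 estimated counts outside S03, and the DESeq2 fits on all 6 libraries and without single animals were added after the data were seen.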

Other observations

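Receptors and signals around the matrix showed no gene that passed with edgeR. Of 18 collagen and matrix receptors, an unadjusted p below 0.05 was found for 2 higher and 2 lower genes (22.2%, against 20.9% of all genes), ITGA1, a collagen-binding integrin chain, was lower with DESeq2, and the median log2 fold change was 0.26. The extremes of that list were ITGB8 at 1.04 and ITGB3 at -0.77 (edgeR adjusted p = 0.299 and 0.226). Of 24 TGF-beta signalling genes an unadjusted p below 0.05 was found for 1 higher and 2 lower genes (12.5%), NREP was lower with DESeq2, and the median was 0.17. NREP, a regulator of TGF-beta, was at 3.02 TPM in S04, 2.61 in S05 and 4.59 in S03, and at 10.3, 10.9 and 23.9 in WT1, WT2 and WT3, below every WT animal in all 3 ASGR1+/- animals (log2 fold change -2.74 without S03, edgeR adjusted p = 0.0696, DESeq2 adjusted p = 1.39e-05). TGFB2, a ligand, had the largest positive value, 0.84 (edgeR adjusted p = 0.444).

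Among 35 matrix glycoproteins tested, POSTN passed with edgeR and DESeq2 passed 6 lower genes and 1 higher, 20.0% of the list against 9.57% of its genes. The higher one was THBS1, thrombospondin-1, an activator of latent TGF-beta, at 27.3 TPM in S03, 7.09 in S04 and 6.56 in S05, where WT had 3.17, 1.65 and 2.44 in WT1, WT2 and WT3. All 3 ASGR1+/- animals lay above every WT animal, with a log2 fold change of 1.41 without S03 and 2.30 with it (edgeR adjusted p = 0.0634 and 0.115). SPARCL1, a relative of SPARC, had the lowest value, -1.89 (edgeR adjusted p = 0.0843). OMD, osteomodulin, had the largest positive value of the proteoglycans, 1.27, from levels of 0.24 to 1.1 TPM (edgeR adjusted p = 0.273).

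The mesothelial marker UPK1B was at 8.74 TPM in S04 and 1.78 in S05, 0.52 in S03, 0.18 in WT1 and listed at 0 in WT2 and WT3, and KRT19, which cholangiocytes also express, at 16.2 TPM in S04, 5.33 in S05 and 1.18 to 3.77 in the other libraries. S04, the library with the highest mesothelial sum, stood above S05 in TPM for 8 of the 10 matrix genes. Over all 13401 genes tested, 5570 were higher in S04 than in S05 by TPM. The part of capsule in these values was not tested.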
